A study of Homo sapiens with 3 samples.

Results

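The nuclear genes for the proteins of the mitochondrial ribosome were examined for ZBTB11 peaks near their starts. The set was taken from the GENCODE release 44 annotation as every protein-coding gene whose symbol starts with MRPL or MRPS, plus DAP3, PTCD3, AURKAIP1, CHCHD1 and GADD45GIP1, whose proteins are ribosomal but carry other names. This rule gave 83 of 20033 protein-coding genes, and it used no measured value. Of the 83, 52 encode proteins of the large subunit and 30 encode proteins of the small subunit. MRPS36 was not placed in either, since its product is now known as a component of the alpha-ketoglutarate dehydrogenase complex. MRPS18A and MRPS30 were counted with the large subunit, where their proteins sit despite their names.

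The mitochondrial ribosome translates the few messages of mitochondrial DNA, which encode core subunits of the respiratory chain. All its proteins are made from nuclear genes, translated in the cytosol and imported, so their supply has to be matched to ribosomal RNAs transcribed inside the organelle. Promoters of nuclear genes for mitochondrial proteins often carry sites for the ETS factor GABPA, which reads a core of the type CCGGAAG, and for NRF1 and YY1.

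The measurements are lists of peaks called after chromatin immunoprecipitation and sequencing (ChIP-seq), made to learn where the zinc finger protein ZBTB11 sits on chromatin. The cells were of the human lung cancer line NCI-H1299, which the paper describes as p53-null. They were untreated, labelled wild type (WT) and fixed with formaldehyde, and 1 library was precipitated with an anti-ZBTB11 antibody and 1 with normal IgG, while the Input sample was not used here. With 1 library for each antibody and 1 cell line, no value below has a replicate check, no p-value across genes is given and every comparison describes these libraries.

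On chromosomes 1 to 22, X and Y the ZBTB11 list held 346891 peaks, and 14793 of them had a p of 1e-05 or less, the level called strong here. The IgG list held 26712 peaks on 4 chromosomes, so it served as a control on chromosomes 1, 10 and 21 only. The number of fragments stacked at a peak's summit (the pileup) was solved from the fold and p listed for that peak. Intervals on pileups are exact Poisson 95% intervals and those on shares are Wilson 95% intervals, and both cover counting error only. Away from peaks, the expected pileup was 1.35 fragments for ZBTB11 and 1.55 for IgG, and pileups were not scaled between the libraries.

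The authors found the ETS-type word CCGGAAG or CAGGAAG de novo in their high ZBTB11 peaks. Its shares at summits are therefore no independent support for it. The word lay within 50 bp of the summit in 18 of the 59 members with a strong peak, beside 25.2% of all protein-coding genes with one. The stretches of 29 bases around the copy nearest the summit are shown for the 6 such members with the smallest p and for MRPL24, the leading one on a chromosome that the IgG list covers. Capitals mark the word, and each stretch is read 5′ to 3′ on the strand that carries it.
MRPS31: aaggcgccaggCCGGAAGcggaagagagg
MRPL51: cggtccgcctgCCGGAAGttttggagcgc
MRPL3: tgtaaaacgcaCCGGAAGtgggtccggcg
MRPL58: ggaagcgcccgCCGGAAGcagtcgcaaga
MRPS34: gccggaagtcaCCGGAAGaggccggtgtc
MRPL40: ggggcgcacgcCCGGAAGcggcgagggta
MRPL24: aaagctggaaaCAGGAAGtttggcggggg
In hg38 these stretches are chr13:40771205-40771233 (minus strand), chr12:6493364-6493392 (plus), chr3:131502986-131503014 (minus), chr17:75012651-75012679 (plus), chr16:1773146-1773174 (plus), chr22:19432523-19432551 (plus) and chr1:156741215-156741243 (plus). The centre of the word was 4 bp from the summit at MRPL51, 13 bp at MRPS34 and 14 bp at MRPL24. It was 21 bp away at MRPS31, 25 bp at MRPL3, 33 bp at MRPL58 and 41 bp at MRPL40. At MRPS31, MRPL3, MRPL58 and MRPL40 the word was on the strand of the gene, and at the other 3 it was on the opposite strand.

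ZBTB11 peaks were listed within 3 kb of a transcript start for 81 of the 83 genes (97.6%, 91.6 to 99.3), where 87.7% of all protein-coding genes had one. Strong peaks were found at 59 (71.1%, 60.6 to 79.7), beside 46.9% of all protein-coding genes. Leading peaks, those among the 1000 with the smallest p in the whole list, were found at 21 (25.3%, 17.2 to 35.6), beside 6.01% of all protein-coding genes. At a q of 0.05 or less the numbers were 63 genes (75.9%) and 55.3%. Over the genes with a listed peak, the median −log10 p was 11.2 for the 81 members and 5.73 for the 17575 protein-coding genes, and the median pileup was 19 and 11 fragments. The members ran from 5 to 494 fragments, and their upper quartile was 135 fragments, beside 30 for all protein-coding genes.

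**Figure D1:**
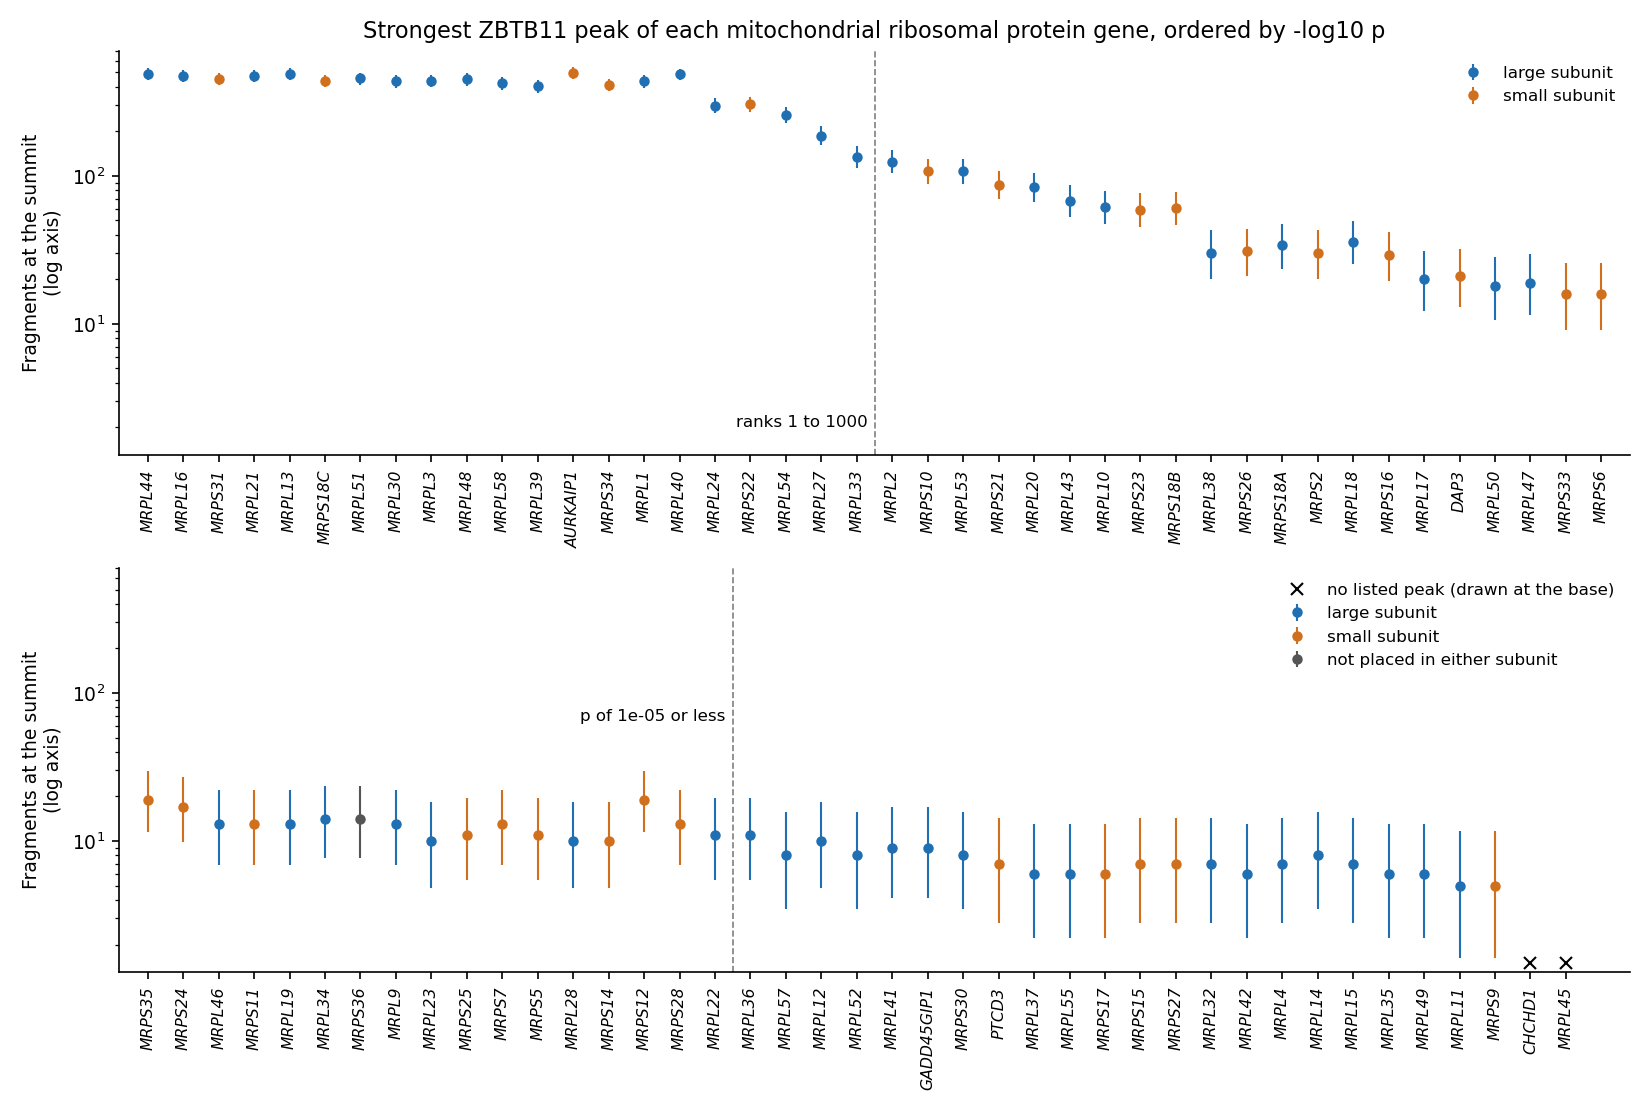
Fragments at the summit of the strongest ZBTB11 peak of each of the 83 genes, on a log axis, in order of −log10 p and coloured by subunit, with exact Poisson 95% intervals for counting error. The first 16 genes form a plateau between 403 and 494 fragments, the values then fall through 135 at the end of the 1000 leading ranks, and CHCHD1 and MRPL45, with no listed peak, are drawn as crosses at the base.

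**Figure D2:**
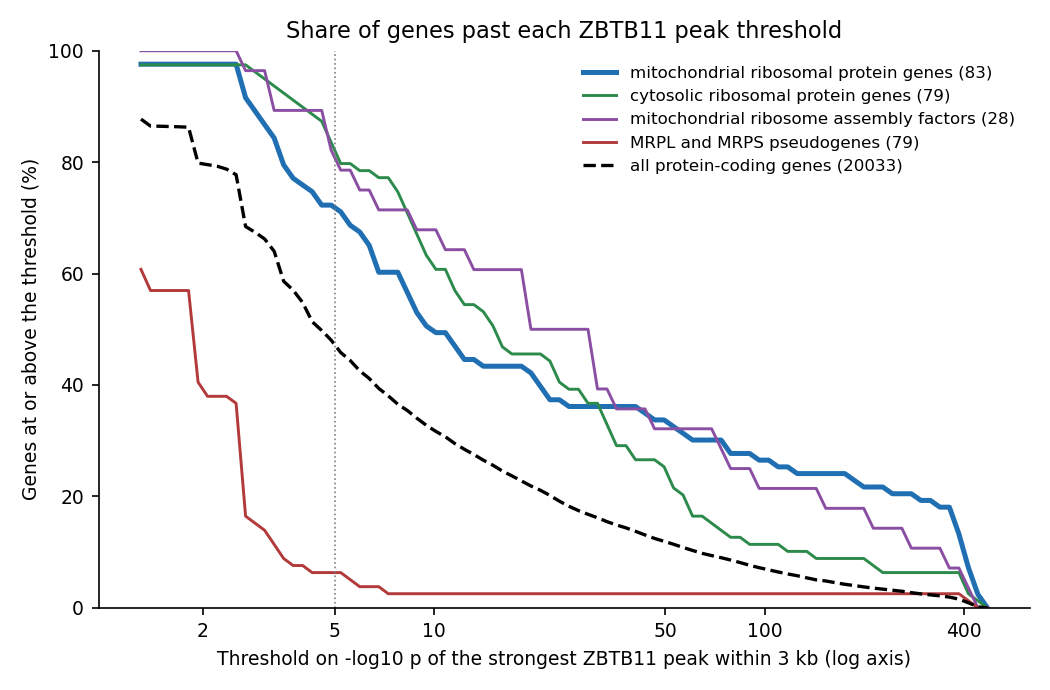
Share of genes whose strongest ZBTB11 peak reaches each −log10 p on a log axis, for the 83 genes, 79 cytosolic ribosomal protein genes, 28 mitochondrial ribosome assembly factors, 79 MRPL and MRPS pseudogenes and all 20033 protein-coding genes. At the dotted line (−log10 p of 5) the mitochondrial ribosomal protein genes are at 71.1%, below the cytosolic ones at 82.3%, whereas for peaks of rank 1 to 1000, toward the right, they are at 25.3% and the cytosolic ones at 10.1%.

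The members with the smallest p, MRPL44 and MRPL16, encode proteins of the large subunit, as do 52 of the 83 genes. MRPL44, whose protein has a ribonuclease III-like fold, had 490 fragments (448 to 535) at a summit 50 bp upstream of its start, in a peak at chr2:223957009-223957891 of rank 18 in the whole list. MRPL16, the counterpart of a bacterial protein beside the peptidyl transferase centre, had 473 (431 to 518) at 62 bp upstream, in a peak at chr11:59810364-59811220 of rank 24. MRPL21 had 475 fragments and MRPL13, on chromosome 8, had 487. MRPL51 had 455, MRPL30 had 434, MRPL3 had 437 and MRPL48 had 448. These 8 had ranks between 18 and 218, and their intervals overlapped one another. MRPL58, which encodes a peptidyl-tRNA hydrolase that rescues stalled ribosomes, followed at 422 fragments, with MRPL39 at 403, MRPL1, of the stalk beside the tRNA exit site, at 435 and MRPL40 at 485.

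Among small subunit genes the leading ones were MRPS31, with 454 fragments (413 to 498) in a peak at chr13:40770794-40771635 of rank 85, and MRPS18C, with 439 (399 to 482) in one at chr4:83455439-83456395 of rank 129. AURKAIP1, named for an interaction with Aurora kinase A and encoding a small subunit protein, had the highest pileup of all members, 494 fragments (451 to 540). It stood only at place 13 by p, with a local background of 34.3 fragments, where that of MRPL44 was 23.7. Whether this background includes fragments of the peak itself was not tested. MRPS34 had 411 fragments. The interval of AURKAIP1 overlapped those of 14 of the other 15 members with 400 or more fragments, so the order within this plateau is not resolved by the counts, and MRPL39 was the exception. Across all protein-coding genes 396 reached 400 fragments and the highest had 515. Whether peak calling capped pileups near this level was not tested, and the Poisson intervals take no account of such a cap.

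Below the plateau, MRPS22 had 304 fragments (271 to 340), MRPL24 had 298 and MRPL54 had 257, and their intervals overlapped. MRPL27, whose bacterial counterpart reaches the peptidyl transferase centre, had 187 (161 to 216), apart from the genes above and below it. MRPL33 had 135 (113 to 160). Another 9 genes outside the 1000 leading ranks had between 59 and 125 fragments, led by MRPL2 at 125 (104 to 149), which overlapped MRPL33, and by MRPS10 and MRPL53 at 108. The remaining 29 strong members had between 10 and 36 fragments, among them DAP3, a GTP-binding small subunit protein, at 21 (13 to 32.1) and MRPS12, the counterpart of a bacterial decoding centre protein, at 19 (11.4 to 29.7). Close to the threshold, MRPL22 had a −log10 p of 5.26 and MRPL36 one of 4.98, each with 11 fragments.

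Of the large subunit genes, 34 of 52 had a strong peak (65.4%, 51.8 to 76.8) and 16 a peak in the 1000 leading ranks (30.8%, 19.9 to 44.3). Of the small subunit genes, 24 of 30 had a strong peak (80.0%, 62.7 to 90.5) and 5 one in the leading ranks (16.7%, 7.34 to 33.6). The intervals overlapped in both cases. Genes whose protein has a bacterial counterpart had a strong peak in 35 of 46 cases and a leading one in 10 (21.7%, 12.3 to 35.6). Genes of proteins found in mitochondrial ribosomes only had them in 22 and 11 of 34 (32.4%, 19.1 to 49.2), again with overlapping intervals. The origin of MRPS28, MRPL55 and MRPS36 was not placed. Overlap of intervals is no test of a difference, and differences between the classes were not tested.

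Without a strong peak were 24 genes. CHCHD1 and MRPL45, which encodes a protein that links the ribosome to the inner membrane, had no listed peak within 3 kb. The other 22 had peaks of 5 to 11 fragments, where the lowest listed peak of any protein-coding gene had 3. MRPL36 had 11 fragments, MRPL12, of the stalk that recruits translation factors, had 10, and MRPL41 and GADD45GIP1 had 9. MRPL57, MRPL52, MRPS30 and MRPL14 had 8 fragments. MRPS15, MRPS27, MRPL32, MRPL4, MRPL15 and PTCD3, a pentatricopeptide repeat protein of the small subunit, had 7. MRPL37, MRPL55, MRPS17, MRPL42, MRPL35 and MRPL49 had 6, and MRPL11, at the base of the stalk, and MRPS9 had 5. The intervals of all 22 overlapped that of the lowest strong pileup (4.8 to 18.4 for 10 fragments), so at this depth the division at the threshold is one of calling and not of resolved levels.

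The IgG library gave the background on chromosomes 1, 10 and 21, which hold 15 of the genes. An IgG peak was listed within 3 kb for 12 of them (80.0%, 54.8 to 93.0), where 68.7% of all protein-coding genes on these chromosomes had one. Strong IgG peaks were at 0 of the 15, beside 1.99% of all protein-coding genes there. Each value is that of the library's strongest peak within 3 kb, so the ZBTB11 and IgG peaks of a gene can lie apart. The IgG pileups lay between 5 and 10 fragments. Against them the ZBTB11 library had 403 fragments at MRPL39 with 7 in IgG, 494 at AURKAIP1 with 10, and 298 at MRPL24 with 6. MRPS21 had 87 and 7 fragments and MRPL43 had 68 and 7. MRPL20 had 84 fragments and no IgG peak. These 6 genes were far above the IgG range.

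Lower down, the gap to IgG was smaller, and at some genes the libraries met. MRPS16 had 29 ZBTB11 and 6 IgG fragments, DAP3 had 21 and 6, and MRPS6 had 16 and no IgG peak. MRPL9 had 13 fragments (6.92 to 22.2) and 9 in IgG, and MRPS14 had 10 (4.8 to 18.4) and 7, so the IgG value lay inside the ZBTB11 interval at both. MRPL37 had 6 in both, in peaks that did not overlap, MRPL55 had 6 and 5, and CHCHD1 had no peak in either. At MRPS15 the IgG pileup of 10 fragments was above the 7 of ZBTB11. At 7 of the 15 genes (46.7%, 24.8 to 69.9) the strongest ZBTB11 peak overlapped an IgG peak by at least 1 bp, beside 24.3% of all protein-coding genes on these chromosomes, and these were AURKAIP1, MRPS21, MRPS16, MRPL9, MRPS14, MRPL55 and MRPS15.

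**Figure D3:**
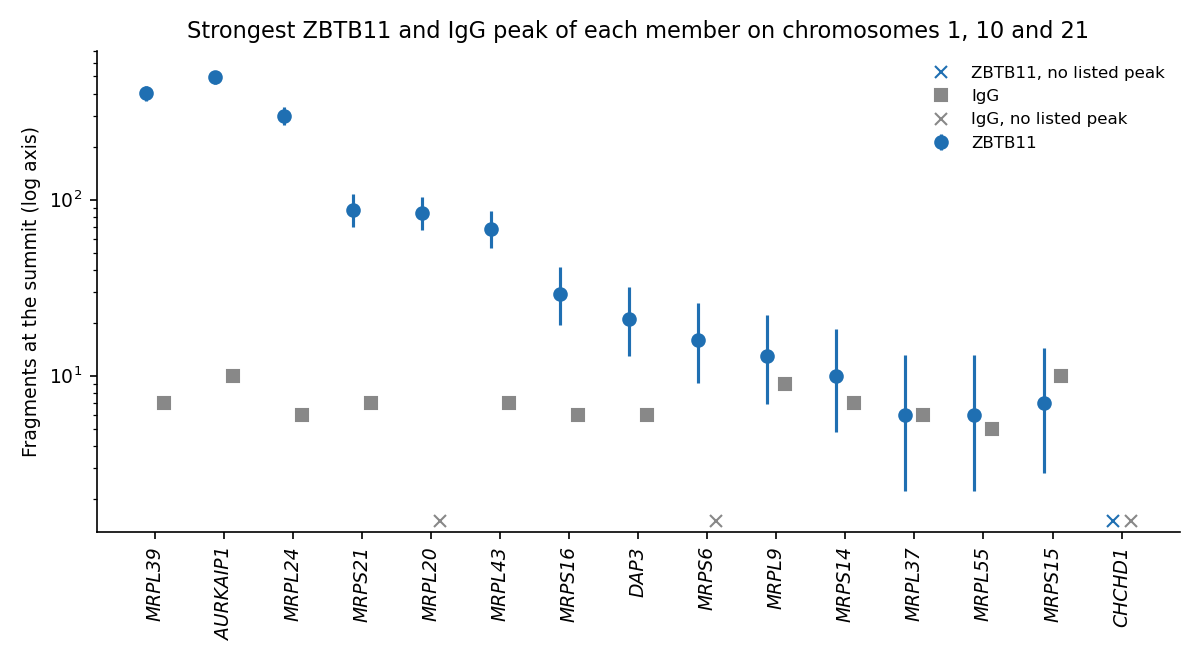
Fragments at the summit of the strongest ZBTB11 peak (circles, exact Poisson 95% intervals) and of the strongest IgG peak (squares) for the 15 genes on chromosomes 1, 10 and 21, on a log axis, with crosses at the base where no peak is listed. ZBTB11 runs from 494 fragments down to 6, whereas IgG stays between 5 and 10, and at MRPS15 the IgG square is the higher one.

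The peaks sat at the starts of the genes. The median distance of the summit from the nearest start of the gene was 80 bp over the 81 genes with a peak and 50 bp over the 21 with leading peaks, beside 258 bp and 57 bp for all protein-coding genes. The summit was within 500 bp of the start in 55 of 59 strong members. A strong peak reached within 500 bp of a start at 57 of these 59. Over all protein-coding genes with a strong peak, this was so at 8721 of 9393. Peaks were taken within 3 kb of a start, so closeness to it is partly set by the rule. The summit lay upstream of the start in 38 of the 59 (64.4%, 51.7 to 75.4) and in 17 of the 21 leading ones (81.0%, 60.0 to 92.3). All protein-coding genes had 53.6% and 67.0%. The split by annotation was made for the members only. Of the 59 summits, 27 were upstream of the gene, 13 in a 5′ untranslated region and 7 in a coding exon. A further 2 were in another exon, 9 in an intron and 1 downstream of the gene. The last was that of MRPL2, 1833 bp downstream of its start, past its end, and 6 bp from the start of CUL7, a cullin of a ubiquitin ligase. The summit assigned to MRPL22 was 2900 bp upstream of it and 38 bp from that of GEMIN5. In all, 10 of the 59 summits lay nearest to the start of another gene. Restricted to peaks nearest to a gene's own start, strong peaks remained at 49 of the 59. Over all protein-coding genes they remained at 7820 of 9393, so this is no trait particular to the members.

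**Figure D4:**
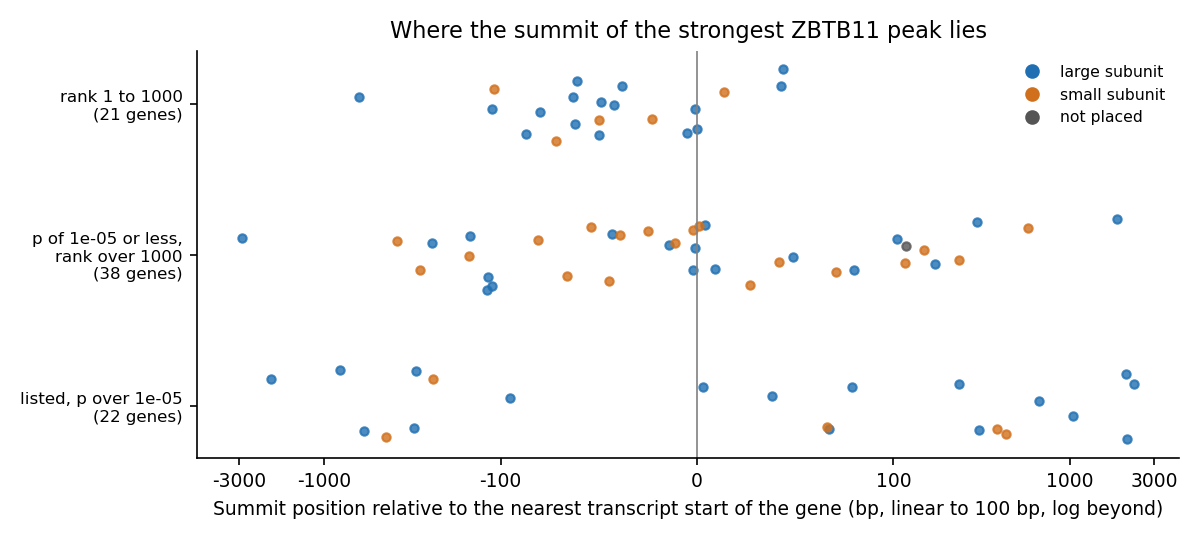
Distance in bp from the nearest transcript start of the gene to the summit of its strongest ZBTB11 peak, negative upstream, linear to 100 bp and on a log scale beyond, for 21 genes with a peak of rank 1 to 1000, 38 other strong members and 22 with a listed peak that was not strong. The 21 leading summits cluster just upstream of the start with a median distance of 50 bp, and those of the 22 spread out with a median of 348 bp.

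Many of the genes share their start region with another gene. A protein-coding gene on the other strand began upstream and within 1 kb at 33 of the 83 (39.8%, 29.9 to 50.5), beside 16.2% of all protein-coding genes, and at 23 of the 59 with a strong peak (39.0%, 27.6 to 51.7), beside 26.2%. For 27 genes the strongest peak was also that of such a partner, so the peak cannot be given to either gene alone. No share over all protein-coding genes stands beside the counts of shared peaks, so sharing is not shown to be unusual. Strong peaks were about as common with a partner (23 of 33, 69.7%) as without (36 of 50, 72.0%), whereas over all protein-coding genes they were found at 75.9% and 41.3%.

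Of the 21 leading genes 9 shared their peak in this way. MRPL21 shared it with IGHMBP2, a helicase gene beginning 28 bp away, MRPL13 with MTBP at 17 bp, MRPS18C with the DNA helicase gene HELQ at 77 bp, and MRPL51 with the condensin gene NCAPD2 at 61 bp. MRPL30 shared it with MITD1 at 94 bp, MRPS34 and MRPL27 with EME2 at 112 bp and EME1 at 13 bp, which encode partners of the nuclease MUS81, MRPL40 with the histone chaperone gene HIRA at 812 bp, and MRPL54 with APBA3 at 990 bp. The summit was nearest to the partner's start at MRPL21, MRPL51 and MRPL54. The other 12 leading genes, MRPL44, MRPL16 and MRPS31 among them, had no such partner.

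Several partners encode mitochondrial proteins themselves. MRPL43 shared its peak of 68 fragments with TWNK, the helicase of mitochondrial DNA replication, 21 bp away. MRPL47 (19 fragments) shared it with NDUFB5 and MRPL36 (11 fragments) with NDUFS6, both for subunits of respiratory complex I, and MRPS12 (19 fragments) with SARS2, the mitochondrial seryl-tRNA synthetase. MRPL46 and MRPS11 begin 63 bp apart, head to head, and shared 1 peak of 13 fragments. The remaining shared peaks were those of MRPL10 with LRRC46 (62 fragments), MRPS18B with PPP1R10 (61), MRPL18 with the chaperonin gene TCP1 (36), MRPS2 with PIERCE1 (30), DAP3 with YY1AP1 (21), MRPL50 with ZNF189 (18), MRPL9 with OAZ3 (13) and MRPS7 with GGA3 (13). Below the strong level they were those of MRPL57 with SKA3 (8), MRPL14 with TMEM63B (8), PTCD3 with POLR1A (7) and MRPL32 with PSMA2 (7).

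The consensus at the summit was found in 18 of the 59 strong peaks (30.5%, 20.3 to 43.1), where the share over all protein-coding genes was 25.2%. In equal windows 500 bp to either side it was found in 5 of 118 (4.24%). The word came from peaks of this library, so this difference is a description and no test of it. Among the 21 leading genes it was at 7 summits (33.3%, 17.2 to 54.6), where all protein-coding genes with leading peaks had 44.9%. The nearest copy read CCGGAAG in 16 of the 18 and was on the strand of the gene in 7 of those 16. The median pileup was 97.5 fragments for the 18 genes with the word and 21 for the 41 without it, among them MRPL44, MRPL16 and 12 more of the 21 leading genes.

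The inner letters CGGAA, contained in CCGGAAG, were searched alone after these values were seen. On either strand within 50 bp it was found in 35 of the 59 strong members (59.3%, 46.6 to 70.9) and in 12 of 118 flanking windows (10.2%), beside 46.7% and 11.1% for all protein-coding genes. Among leading peaks the order was the other way, with 14 of 21 members (66.7%, 45.4 to 82.8) and 80.3% of all protein-coding genes. Of the 14 leading members without the consensus it was at 7 (50%, 26.8 to 73.2), beside 68.1% of all such protein-coding genes, and at 6 of the 14 (42.9%, 21.4 to 67.4) a C followed it, giving CGGAAC, which 1 of 28 flanking windows held (3.57%). Over all protein-coding genes with a leading peak and no consensus, CGGAAC was at 40.5% of summits and in 2.71% of flanking windows. The stretches of 3 of these 7 genes, MRPL44 and MRPL16 at the head of the list and MRPL39 with an IgG value, show the word in capitals.
MRPL44: acacacttccccCGGAAcccggaacgcgg
MRPL16: ctcaacctccccCGGAActcaacccccgt
MRPL39: gccctcctccccCGGAAaccgaacgcgca
They are chr2:223957387-223957415 (minus strand), chr11:59810843-59810871 (minus) and chr21:25607513-25607541 (plus), with the centre of the word 12, 17 and 5 bp from the summit.

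The words were also counted in promoters of fixed extent, from 250 bases before to 50 after the start, taken from RefSeq (GRCh38.p14) and matched by symbol for 74 of the 83 genes. CCGGAAG on either strand was in 30 of the 74 (40.5%, 30.1 to 51.9), beside 14.4% of all 15367 promoters. Of the 30 genes with it, 29 had a strong peak and 15 a leading one. Of the 44 without it, 23 had a strong peak (52.3%) and 4 a leading one (9.09%, 3.59 to 21.2), namely MRPL44, MRPL39, MRPL1 and MRPL24. The exception among the 30 was MRPL52, with 8 fragments. Over all protein-coding genes, strong peaks were at 84.6% of promoters with the word and 43.2% without, and leading peaks at 21.1% and 3.97%. Thus 15 of the 19 leading genes with a promoter sequence held CCGGAAG there, although 9 of these 15 did not hold it within 50 bp of the summit. The other word, CAGGAAG, was in 6 of the 74 promoters (8.11%), beside 12.6% of all promoters. Of these 6 genes 3 had a strong peak (50%, 18.8 to 81.2), where 49 of the 68 without it had one (72.1%, 60.4 to 81.3), and over all protein-coding genes the shares were 49.8% and 49.0%.

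The shares were higher where the promoter held more copies of the word. These shares are descriptions too, since the word came from peaks of the same library. With 2 or more copies in the promoter 8 of 8 genes had a strong peak and 5 a leading one (62.5%, 30.6 to 86.3), with 1 copy 21 and 10 of 22 (45.5%, 26.9 to 65.3), and with 0 copies 23 and 4 of 44. The 8 were MRPL51, MRPL58, MRPS34, MRPS22, MRPL27, MRPL53, MRPS21 and MRPL20. Over the 72 genes with both values, Spearman's rho between the number of copies and −log10 p was 0.63, given as a description across genes of 1 library, and that with the GC content of the promoter was 0.04.

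**Figure D5:**
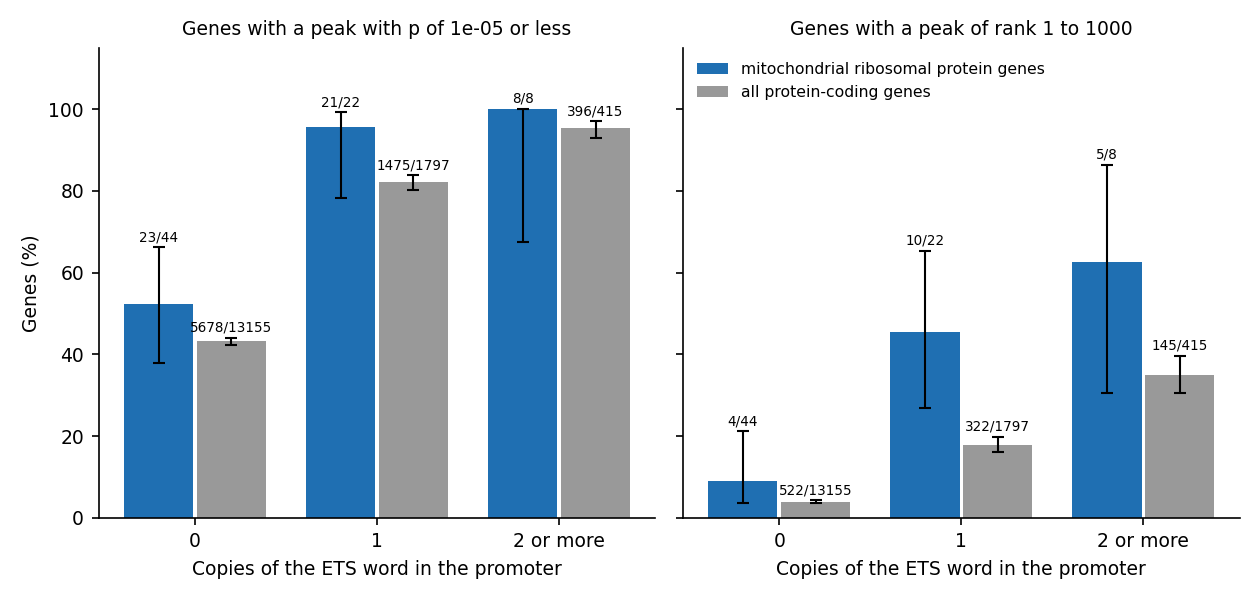
Percent of genes with a strong ZBTB11 peak (left) and with a peak of rank 1 to 1000 (right) by the number of copies of CCGGAAG, labelled as the ETS word, in the RefSeq promoter, for the mitochondrial ribosomal protein genes and for all protein-coding genes, with the numbers of genes above the bars and Wilson 95% intervals for counting error. Both shares are higher with more copies in both groups, from 52.3% to 100% and from 9.09% to 62.5% for the mitochondrial ribosomal protein genes.

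The YY1 core AAGATGGCG, searched on both strands, was in 15 of the 74 promoters (20.3%, 12.7 to 30.8), beside 2.79% of all promoters, and at 0 of the 59 strong summits (0.0%, up to 6.11). Of these 15 genes 8 had a strong peak and 0 a leading one (0.0%, up to 20.4), whereas 19 of the 59 without the core had a leading one (32.2%, 21.7 to 44.9). The 15 were MRPS10, MRPS18B, MRPL38, MRPS18A, MRPL50, MRPS24, MRPL46, MRPL22, MRPL36, MRPL52, GADD45GIP1, MRPS30, PTCD3, MRPL32 and MRPL42, with pileups from 6 to 108 fragments. CCGGAAG was also in 4 of the 15 promoters. Over all protein-coding genes the order was the other way, with leading peaks at 10.3% of genes with the core and 6.33% without. The NRF1 core GCGCATGCG was in 3 of the 74 promoters (4.05%), those of MRPS18C, MRPL17 and MRPL22, beside 2.73% of all promoters, and at 0 of the 59 strong summits. A match is a description of these letters, and no match in a window says nothing of the factor.

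MRPS31P5 and MRPS31P4, copies of MRPS31 on its chromosome that are annotated as transcribed pseudogenes, carried peaks of similar pileup. MRPS31P2, also on chromosome 13, had no listed peak, and MRPS31P1 on chromosome 3 had one of 5 fragments. The pileup was 454 fragments (rank 85) at MRPS31, 438 at MRPS31P5 (rank 124) and 418 at MRPS31P4 (rank 169), with summits 50, 108 and 97 bp upstream of the respective starts. Over the 301 bases around the summit, MRPS31P5 matched MRPS31 at 249 of 295 aligned bases (84.4%) and MRPS31P4 at 246 of 292 (84.2%). Of the 271 words of 31 bases in this window, 271 occurred once on chromosomes 1 to 22, X and Y at MRPS31 and 258 (95.2%) at each pseudogene. The sites of MRPS31 that read CCGGAA on the gene's strand are set beside the aligned bases of the copies, with these 6 positions in capitals.
MRPS31 first site: ccgcgggcgagtCCGGAAcacagttacccg
MRPS31P5 first site: ccgcgggcgagtCCGGAAcacagttaccca
MRPS31P4 first site: ccgcgggcgagtCCGGAAtacagttaccca
MRPS31 second site: gaaggcgccaggCCGGAAgcggaagagagg
MRPS31P5 second site: gaacaagccagaCCGGAAacggaggagagc
MRPS31P4 second site: gaacccgccagaCCAGAAacggaagagagc
The first site is at chr13:40771267-40771296 (minus strand) in MRPS31, chr13:52194509-52194538 (minus) in MRPS31P5 and chr13:52617399-52617428 (plus) in MRPS31P4. The second is at chr13:40771205-40771234 (minus), chr13:52194447-52194476 (minus) and chr13:52617461-52617490 (plus). The first reads CCGGAA in all 3 genes. At the second, MRPS31 alone has the full consensus, and MRPS31P4 does not read CCGGAA. The IgG list has no peak on chromosome 13, so no control value stands beside these.

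Of 79 MRPL and MRPS pseudogenes, 48 had a listed peak (60.8%), 5 a strong one (6.33%, 2.73 to 14.0) and 2 a leading one, those of MRPS31. The other 3 with a strong peak, MRPL36P1, MRPL15P1 and MRPS35P3, had 12, 9 and 10 fragments at summits more than 2 kb from their starts. Among the members themselves, words of 31 bases around the summit were counted on the same chromosomes. Every word occurred once in 56 of the 59 strong genes and in 20 of the 21 leading ones. The exception among the leading genes was MRPS18C (94.8%), and the lowest share was that of DAP3 (73.4%).

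The same values were taken for other genes of ribosome biology. Of 28 genes for factors that assemble the mitochondrial ribosome, 23 had a strong peak (82.1%, 64.4 to 92.1) and 6 a leading one (21.4%, 10.2 to 39.5), with a median −log10 p of 24.6. The highest were MTERF4, a partner of the rRNA methyltransferase NSUN4, with 440 fragments, METTL15, a methyltransferase of the small subunit rRNA, with 409, and YBEY, an RNA-processing endoribonuclease, with 414. The lowest were FASTKD2 with 6, RPUSD4 with 7 and ERAL1, a small subunit chaperone, with 5. The summit for YBEY was nearest to the start of MCM3AP, that for RPUSD4 to FAM118B and that for ERAL1 to FAM222B. Of 79 cytosolic ribosomal protein genes, 65 had a strong peak (82.3%, 72.4 to 89.1) and 8 a leading one (10.1%, 5.22 to 18.7), with a median −log10 p of 15.3 over the 77 with a peak. The highest pileups were those of RPS7 with 496 fragments and RPS18 with 485. The summit for RPS18 was 1 bp from the start of VPS52. The mitochondrial set thus had a smaller share of strong peaks and a larger share of leading ones than the cytosolic set. The Wilson intervals overlapped in both cases, which is no test of the differences, and none was run.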

How the data were processed

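Samples of NCI-H1299 cells were precipitated with anti-ZBTB11 or normal IgG, 1 library each, with groups read from the titles, and the Input sample was not used here. The authors state that paired reads were aligned by BWA (hg38) and that MACS called each antibody's peaks independently at a p-value below 0.05. The layout of the files is that of later MACS releases, so the release is uncertain. The deposited fold of a peak is the ratio of its summit to the local background, and its deposited p-value and q-value are on a −log10 scale. The score column the authors deposited was not used.

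Each gene took the peak with the largest −log10 p within 3 kb of any of its transcript starts (GENCODE release 44). Whole-number pileups were solved from fold and p under a Poisson background with a pseudocount of 1 on both, within 0.001 of the deposited −log10 p for 100% of 17623 gene peaks. Strong peaks had a p of 1e-05 or less. Only peak assignment, pileup solving and the motif search were tested on simulated data. The tools were python 3.11.15, pandas 2.3.3, scipy 1.17.1 and pysam 0.24.0. With 1 library per group no test across samples was possible.

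The members and lists were chosen with earlier results of these data known. Named were the 10 members with the smallest p, all without a strong peak, all on chromosomes 1, 10 and 21, all sharing a peak with a divergent partner, and the 3 highest and 3 lowest assembly factors. Sequences were limited to 30 bases and none was taken from chromosome 8. Other genes in the text, the CGGAA word and the MRPS31 copies were chosen after their values were seen. The alternatives covered distance, starts, thresholds and motif letters.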

Additional observations from a re-analysis of the deposited data

Results flagged for a closer look

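The peaks at 2 pseudogenes of MRPS31 stand outside the comparison of protein-coding genes. MRPS31P5 had a pileup of 438 fragments and MRPS31P4 one of 418, where the other strong pseudogene peaks had 9 to 12. No IgG value can be set beside them because the IgG list has no peak on chromosome 13. Of the 31-base words around each summit, 95.2% occurred once in the genome, which bears on whether reads of MRPS31 could be placed there. Other scaffolds and copies with mismatches were not searched, and how the authors treated reads with several placements was not tested.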

How the results depend on the processing

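Over 30 alternatives to the 5 shares, 21 stayed within the interval of the reported value, and in 28 the share of the genes was above that of all protein-coding genes. The share with any peak (97.6%) was 100% within 10 kb and 85.5% when a gene could take only peaks nearest to its own start, beside 96.1% and 82.1% of all protein-coding genes. The share with a strong peak (71.1%, 59 genes) was 59.0% (49 genes) under the same restriction, beside 39.0%, since 10 strong peaks are nearest to another gene. It was 49.4% (41 genes) at a p of 1e-10 or less and 33.7% (28 genes) at 1e-50, beside 31.8% and 11.9%. The consensus at strong summits (30.5%) was at 47.5% with 100 bp on each side and, as CGGAA alone, chosen after seeing the data, at 59.3%. With peaks at 1e-50 or less it was at 39.3% of members and 42.5% of all protein-coding genes, which turned the order. Any IgG peak (80.0%) was at 33.3% for an IgG p of 0.001 or less and at 46.7% for one overlapping the ZBTB11 peak, beside 32.2% and 24.3% of all protein-coding genes. The share of strong members with a divergent partner (39.0%) stayed within its interval under all 3 alternatives, and with lncRNA partners included it was 44.1%, below the 45.1% of all protein-coding genes. No paired analysis was possible because 1 library stands for each antibody. Depth limits the lower end, where 10 fragments have an interval of 4.8 to 18.4. The local background was higher at peaks of smaller p (Spearman's rho of 0.85 between −log10 p and background over 81 genes), so the listed folds are not proportional to the pileups. Whether a peak's own fragments enter its background was not tested.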

Other observations

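Inside the genes but more than 3 kb from any annotated transcript start, the ZBTB11 list held 199 peaks in 33 of the 83 genes. Many of them lay in MRPS22 and MRPL33, the members with the longest annotated spans. No such count was taken over all protein-coding genes. The 199 peaks were shallow, with at most 12 fragments, and 1 was strong, at MRPL45 (chr17:38320909-38321630, 9 fragments, −log10 p of 5.78), a gene with no peak at its start. On chromosomes 1, 10 and 21 there were 20 such ZBTB11 peaks with at most 9 fragments and 20 IgG peaks with at most 7, and 0 was strong in either library.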
